A study of Mus musculus with 8 samples.

Results

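The genes described here belong to 2 families of transcription factors, the AP-2 factors Tfap2a, Tfap2b, Tfap2c and Tfap2d and the PRDM factors Prdm8, Prdm12, Prdm13 and Prdm16. They were chosen by name, with their RPKM in the libraries of both genotypes in view, so the difference between genotypes is given for them as a description and without a test. Of the 8 named genes 7 are described, out of 12843 genes in all, and Tfap2b was not analysed here. RPKM is reads per kilobase of gene, scaled to the size of the library.

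The RNA came from the lateral ganglionic eminence (LGE), a ventral forebrain domain whose progenitors form striatal neurons and olfactory bulb interneurons. Embryos were taken at E12.5, counted in days of mouse gestation, and 4 libraries were labelled null for Gsx2, a homeobox factor of LGE progenitors, and 4 wild type. The null embryos carried the alleles Gsx2EGFP and Gsx2RA, 1 on each chromosome, and are called a germline knock-out, so the gene was altered in every cell of the embryo and not in the LGE alone. Both genotypes came from crosses of Gsx2RA/+ with Gsx2EGFP/+ parents. The sources used here do not give what each allele keeps of the gene, the strain, or whether a library holds 1 embryo or several, so the p-values of other genes below measure the spread between these samples. Libraries are called by the number in their column names, 5, 6, 11 and 12 for null-labelled and 1, 2, 7 and 8 for wild type, which is not the replicate number of the sample titles.

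AP-2 factors bind GC-rich palindromes as dimers and are known for roles in neural crest, skin and limb, and in the forebrain for the cortical progenitors that express Tfap2c. PRDM factors carry a PR domain, related to the SET domain of histone methyltransferases, and usually zinc fingers, and act on chromatin with cofactors. In the developing nervous system several of them set the choice between neuron types, in cortex, retina and spinal cord.

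Depth was even, with 16066545 to 18019214 reads in listed genes in null-labelled and 16031458 to 17512880 in wild-type libraries. Gsx2 itself stood at 55.2 ± 7.11 RPKM in null-labelled libraries and 23.5 ± 2.16 in wild type (SD, n = 4 each), so its RNA level cannot check the labels. LGE markers summed to 751 to 895 RPKM in the wild-type libraries, or 751.4 to 797.5 RPKM without library 7. Markers of the pallium, the cortical side of the forebrain, summed to 56.2 to 199 RPKM, or 169 to 199 RPKM without library 7. Wild-type library 7 stood apart: 9 of 10 pallial markers were under 50% of the mean of the other wild-type libraries there (lowest 14.6%, median 25.2%), against 1.51% of the 11395 tested genes. Null-labelled libraries 5 and 6 also differed from 11 and 12 in some genes. Many of the ratios and limits that library 7 moves are given without it as well.

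All 7 genes were higher in every null-labelled library than in any wild-type library. The genotypes did not overlap in that direction in 13.9% of all listed genes, and in either direction in 30.9% of the genes tested below. For 6 of the 7 the mean was at least 2-fold higher, by 3.25-fold for Prdm8 to 8.60-fold for Tfap2a, a size that 3.46% of listed and 2.35% of tested genes reached. Prdm16 differed by 1.25-fold. The genes were chosen on this contrast, so nothing is read from these counts. In dissected tissue, fewer cells of a type and less RNA per cell cannot be told apart.

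**Figure D1:**
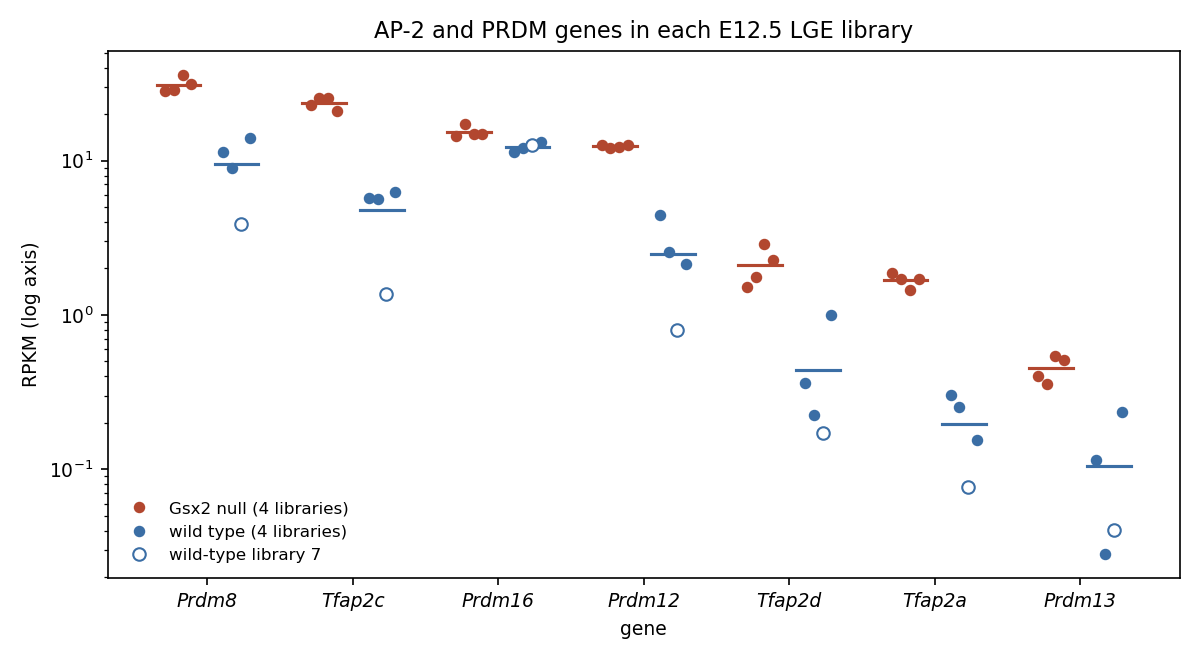
RPKM (log axis) of each gene in the 4 null-labelled libraries (red, left of each pair) and the 4 wild-type libraries (blue, right), with lines at the means and an open circle for wild-type library 7. The genotypes do not overlap for any of the 7 genes, and library 7 is the lowest wild-type library for Prdm8, Tfap2c, Prdm12, Tfap2d and Tfap2a.

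In GRCm38, the build named in the submitters' processing notes as mm10, the genes lie apart except for the neighbours Tfap2d (chromosome 1, 19103022 to 19166346, plus strand) and Tfap2b (19208914 to 19238576). Tfap2c spans 172549593 to 172558622 and Prdm12 31640037 to 31655795 on chromosome 2, both on the plus strand. Prdm13 spans 21677480 to 21685963 and Prdm16 154316125 to 154636873 on chromosome 4, both on the minus strand. Prdm8 lies on chromosome 5 from 98167198 to 98188991 (plus strand) and Tfap2a on chromosome 13 from 40715302 to 40738376 (minus strand). Antisense gene models overlap Tfap2a, Tfap2d, Prdm8, Prdm12 and Prdm16. The library kit kept strand, but the sources used here do not say whether the counting used it, so reads from both strands of these loci cannot be told apart.

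Promoter windows of 300 bases, 250 before to 50 after a gene's start, were taken from RefSeq (GRCm38.p6) for 7 of the 8 genes, all but Tfap2c, and searched on both strands. Tfap2a and Tfap2d had more than 1 window each, some of them without any of the motifs, and the shares of all windows below are per window. The E-box CANNTG, the site of proneural bHLH factors, was in a window of Tfap2b, Tfap2d, Prdm8 and Prdm16, and in 72.3% of all 32851 windows. The narrower CAGATG or CATCTG, which are matches of the E-box too, was in that of Prdm8 and in 17.2% of all windows. TAATTA, a homeodomain core, was in 1 window of Tfap2a and in 5.29% of all windows. The AP-2 palindrome GCCNNNGGC was in the windows of Prdm12 and Prdm16 and in 16.6% of all windows, and the same GCC and GGC with 4 bases between them were in 1 window of Tfap2a and in 14.8% of all windows. The windows of Prdm13 held none of these letters. No motif was in a window of all 7 genes searched. The 250 bases before a RefSeq start are shown, 5′ to 3′, with E-boxes, TAATTA and AP-2 palindromes in capitals. The genes are the one with the widest gap between genotypes, the most abundant in null-labelled libraries and the one that differed least. The stretches are chr13:40734921-40735170 (minus strand), chr5:98180619-98180868 (plus strand) and chr4:154636874-154637123 (minus strand). The spans given above come from another annotation, GENCODE, and the stretches of Tfap2a and Prdm8 lie inside those spans. For Tfap2a the window with matches is shown, and its other window held none of the motifs.
Tfap2a: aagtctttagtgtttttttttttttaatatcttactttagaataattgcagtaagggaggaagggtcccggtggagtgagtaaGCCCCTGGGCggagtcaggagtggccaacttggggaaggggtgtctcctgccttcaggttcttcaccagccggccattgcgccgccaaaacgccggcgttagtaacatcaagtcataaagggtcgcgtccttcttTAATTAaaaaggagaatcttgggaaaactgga
Prdm8: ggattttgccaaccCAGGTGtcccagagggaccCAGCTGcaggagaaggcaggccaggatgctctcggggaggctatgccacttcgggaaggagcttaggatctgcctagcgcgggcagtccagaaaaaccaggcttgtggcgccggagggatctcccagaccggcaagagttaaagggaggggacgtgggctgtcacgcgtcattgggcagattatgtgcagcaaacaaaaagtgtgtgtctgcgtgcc
Prdm16: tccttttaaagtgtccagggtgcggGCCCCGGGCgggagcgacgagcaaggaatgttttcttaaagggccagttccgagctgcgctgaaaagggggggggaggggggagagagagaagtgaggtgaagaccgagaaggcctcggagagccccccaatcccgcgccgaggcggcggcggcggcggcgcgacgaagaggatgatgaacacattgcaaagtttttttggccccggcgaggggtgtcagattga
In Tfap2a the capitals mark an AP-2 palindrome and, close to the start, TAATTA. In Prdm8 they mark 2 E-boxes far from the start, and in Prdm16 a single AP-2 palindrome. A match of letters is a description of the sequence and no evidence of binding.

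Tfap2c, which encodes AP-2 gamma, a factor of mouse cortical progenitors, was the most abundant AP-2 gene. It had 22.9, 25.3, 25.3 and 20.8 RPKM in null-labelled libraries 5, 6, 11 and 12, against 5.76, 5.67, 1.36 and 6.23 RPKM in wild-type libraries 1, 2, 7 and 8. Every null-labelled library was at least 3.35 times the highest wild-type library, and library 7 was far below the other wild-type libraries. The means were 23.6 ± 2.15 RPKM in null-labelled and 4.75 ± 2.28 RPKM in wild-type libraries (SD, n = 4 each), a 4.96-fold ratio, or 4.01-fold without library 7. As log2(RPKM + 1), a scale on which low genes seem to change less than they do, the difference was 2.22 ± 0.39 (SE), and 1.83 ± 0.07 without library 7.

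Tfap2a, encoding AP-2 alpha, known for neural crest and face development, was at 0.302 RPKM or less in wild type. It had 1.88, 1.72, 1.45 and 1.71 RPKM in null-labelled libraries 5, 6, 11 and 12, against 0.302, 0.252, 0.0765 and 0.154 RPKM in wild-type libraries 1, 2, 7 and 8. In reads these were 162, 148, 133 and 144 in the null-labelled libraries and 26, 22, 7 and 13 in wild type. The lowest null-labelled library was 4.79 times the highest wild-type one, the widest gap among the 7 genes. The ratio of means was 8.60, and 7.15 without library 7. It was 6.48 within libraries 5, 6, 1 and 2 and 13.7 within libraries 11, 12, 7 and 8. The difference in log2(RPKM + 1) was 1.17 ± 0.08 (SE) and with a pseudocount of 0.1 it was 2.66, so its size depends on how low values are treated.

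Tfap2d, encoding AP-2 delta, lies beside Tfap2b on chromosome 1. Tfap2d had 1.52, 1.77, 2.90 and 2.28 RPKM in null-labelled libraries 5, 6, 11 and 12, against 0.364, 0.224, 0.171 and 1.00 RPKM in wild-type libraries 1, 2, 7 and 8. Wild-type library 8 was high for this gene, and the gap to the lowest null-labelled library was 1.52-fold. The means were 2.12 ± 0.610 RPKM in null-labelled and 0.440 ± 0.383 RPKM in wild-type libraries, a 4.81-fold ratio and a difference of 1.13 ± 0.22 in log2(RPKM + 1), or 4.00-fold without library 7. Null-labelled libraries 11 and 12 averaged 1.57 times libraries 5 and 6, outside the range of 0.836 to 1.27 that held all but the lowest and highest 5% of tested genes.

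Tfap2a, Tfap2c and Tfap2d together summed to 24.8 to 29.7 RPKM in null-labelled libraries and to 1.60 to 7.38 RPKM in wild type, or 6.14 to 7.38 RPKM without library 7. Tfap2c made up 86.1 ± 1.79% of that sum in null-labelled libraries and 87.7 ± 3.90% in wild type (SD, n = 4 each). Its share of these 3 genes overlapped between genotypes, while the sum did not.

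Prdm8 encodes a factor that in mouse works with Bhlhe22 in neurons of the cortex and spinal cord. It had 28.3, 28.5, 36.0 and 31.3 RPKM in null-labelled libraries 5, 6, 11 and 12, against 11.4, 8.94, 3.89 and 13.9 RPKM in wild-type libraries 1, 2, 7 and 8. The lowest null-labelled library was 2.04 times the highest wild-type one. The means were 31.0 ± 3.57 RPKM in null-labelled and 9.54 ± 4.27 RPKM in wild-type libraries, a 3.25-fold ratio, or 2.72-fold without library 7. The difference in log2(RPKM + 1) was 1.71 ± 0.36 (SE), and 1.38 ± 0.19 without library 7.

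Prdm12, known for pain-sensing neurons in mouse and for spinal interneurons in frog, was at almost the same level in all null-labelled libraries. It had 12.6, 12, 12.3 and 12.6 RPKM in libraries 5, 6, 11 and 12, a coefficient of variation of 2.32%, against 4.41, 2.56, 0.798 and 2.13 RPKM in wild-type libraries 1, 2, 7 and 8, where it was 60.3%. The means were 12.3 ± 0.287 RPKM in null-labelled and 2.47 ± 1.49 RPKM in wild-type libraries, a 4.99-fold ratio, or 4.07-fold without library 7. The difference in log2(RPKM + 1) was 2.05 ± 0.33 (SE). Within libraries 5, 6, 1 and 2 alone the ratio was 3.52, and within libraries 11, 12, 7 and 8 alone it was 8.48.

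Prdm13, which in the mouse spinal cord helps set GABAergic over glutamatergic fate, was the least abundant of the 7 genes. It had 0.401, 0.358, 0.538 and 0.514 RPKM in null-labelled libraries 5, 6, 11 and 12, against 0.115, 0.0283, 0.0405 and 0.235 RPKM in wild-type libraries 1, 2, 7 and 8. These values rest on 28, 25, 40 and 35 reads in null-labelled and 8, 2, 3 and 16 reads in wild-type libraries. The gene was below a mean of 1 RPKM in both genotypes and entered no test across genes. The ratio of means was 4.33, or 3.59 without library 7, and the gap between the lowest null-labelled and the highest wild-type library was 1.53-fold.

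Prdm16, a factor of cortical radial glia in mouse that is also known from brown fat, differed least between genotypes. It had 14.4, 17.3, 14.9 and 14.8 RPKM in null-labelled libraries 5, 6, 11 and 12, against 11.3, 12.1, 12.6 and 13.1 RPKM in wild-type libraries 1, 2, 7 and 8. Library 6 was the high one among the null-labelled libraries, and library 7 did not stand out. The means were 15.4 ± 1.33 RPKM in null-labelled and 12.3 ± 0.753 RPKM in wild-type libraries, a 1.25-fold ratio and a difference of 0.30 ± 0.07 in log2(RPKM + 1). The ratio was 1.26 without library 7. Leaving out each library in turn gave differences from 0.24 to 0.33.

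The order of the levels differed between genotypes. In all 4 null-labelled libraries it ran Prdm8, Tfap2c, Prdm16, Prdm12, and Tfap2d, Tfap2a and Prdm13 were low in all of them. Tfap2c was above Prdm16 in 4 of 4 null-labelled and 0 of 4 wild-type libraries, and Prdm8 was above Prdm16 in 4 of 4 null-labelled and 2 of 4 wild-type libraries. The ratio of Prdm8 to Prdm16 RPKM was 1.65 to 2.42 in null-labelled and 0.310 to 1.06 in wild-type libraries, or 0.740 to 1.06 without library 7. Tfap2d and Tfap2a did not separate within either genotype, with Tfap2d higher in 3 of 4 libraries of each.

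Library 7 was below the mean of the other wild-type libraries for the 6 genes that differed by over 2-fold between genotypes. In it Tfap2c was at 23.0% of the mean of the other wild-type libraries, Prdm12 at 26.3%, Prdm13 at 32.2%, Tfap2d at 32.3%, Tfap2a at 32.4% and Prdm8 at 34.1%, while Prdm16 was at 103%. Prdm13 was lower still in library 2, at 2 reads against 3 in library 7. These 6 genes were thus below 50% there, as were 9 of the 10 pallial markers. Of the other AP-2 and PRDM genes, Tfap2e was at 10.5%, while Prdm9 was at 88.3% and Prdm4 at 88.4%.

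**Figure D2:**
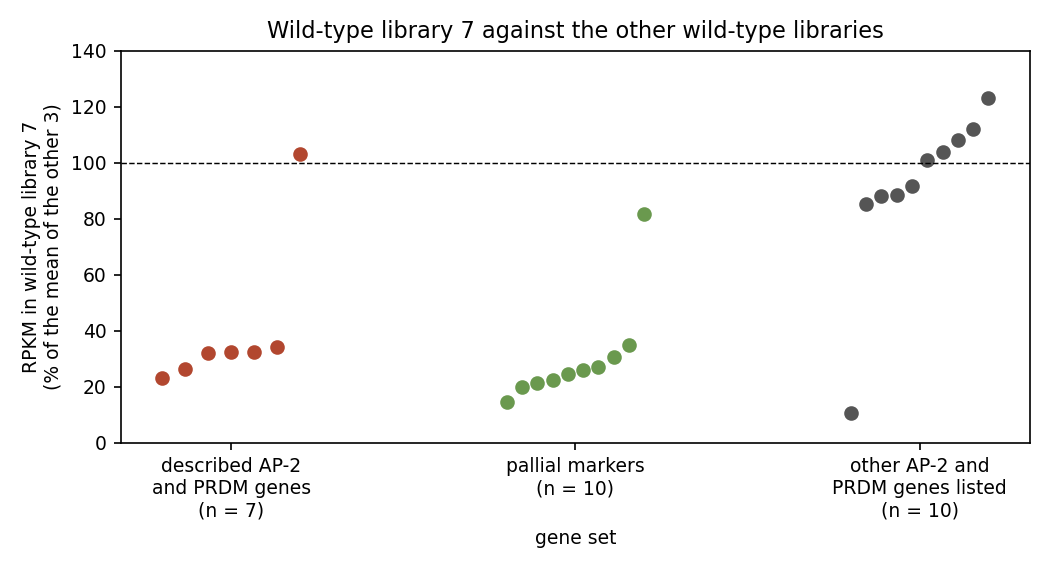
RPKM in wild-type library 7 as a percentage of the mean of the other 3 wild-type libraries, 1 point per gene, for the 7 described genes, 10 pallial markers and the 10 other AP-2 and PRDM genes listed. Of the described genes, 6 lie between 23.0% and 34.1%, near the pallial markers' median of 25.2%, and Prdm16 lies at 103%.

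For genes outside the 7, log2(RPKM + 1) was compared between genotypes with limma, a linear model fitted over all 11395 genes with a mean of at least 1 RPKM in either genotype. Of these, 28.5% passed an adjusted p of 0.05, 13.8% as higher and 14.6% as lower in null-labelled libraries. All 10 pallial markers rose in the null-labelled libraries, 11 of 12 LGE markers fell, and none of either list was at 0 in any library. The pallial markers summed to 574 to 636 RPKM in null-labelled and 56.2 to 199 RPKM in wild-type libraries (169 to 199 without library 7). LGE markers summed to 184 to 241 RPKM in null-labelled and 751 to 895 RPKM in wild-type libraries (751.4 to 797.5 without library 7). Set against the pallial sum, Tfap2c had 3.88 ± 0.189 RPKM per 100 RPKM of pallial markers in null-labelled libraries and 3.01 ± 0.454 in wild type. Prdm8 had 5.13 ± 0.592 in null-labelled libraries and 6.36 ± 1.03 in wild type on this scale. Prdm12 had 2.04 ± 0.141 in null-labelled libraries and 1.58 ± 0.456 in wild type, and the genotypes overlapped. For Tfap2d and Prdm13 they overlapped too. Tfap2a remained apart, at 0.279 ± 0.0369 in null-labelled libraries and 0.130 ± 0.0318 in wild type. Prdm16 stood at 2.39 to 2.72 per 100 RPKM in null-labelled libraries, against 5.69 to 22.4 in wild type, or 5.69 to 7.14 without library 7. The part of pallial cells in the levels of the 7 genes was not tested.

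**Figure D3:**
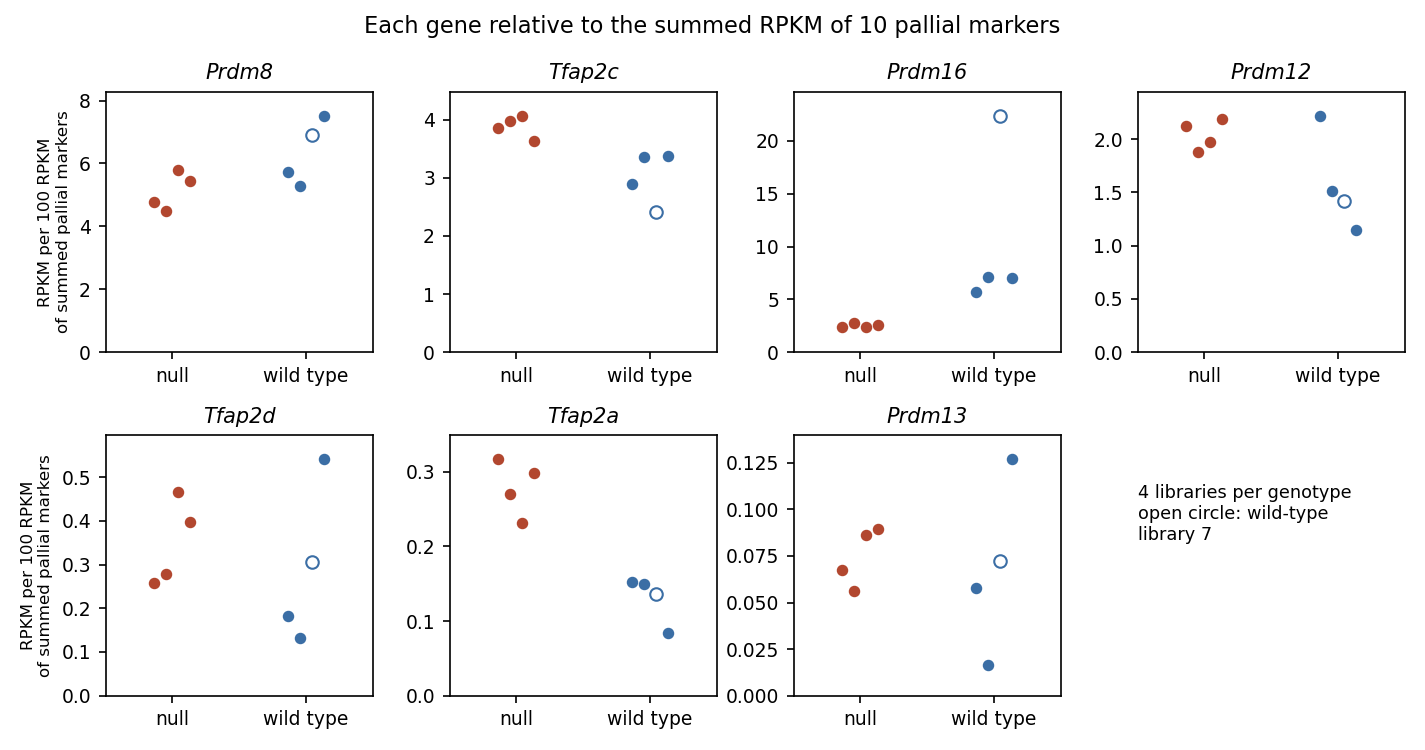
RPKM of each gene per 100 RPKM of the summed pallial markers in the 4 null-labelled (red, left) and 4 wild-type libraries (blue, right; open circle, library 7), each panel with its own axis from 0. The genotypes overlap for Prdm8, Prdm12, Tfap2d and Prdm13 and are apart for Tfap2c, Tfap2a and Prdm16.

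Markers of other cell types were compared in the same way. Of 10 surface ectoderm markers 0 could be analysed here. Of 12 neural crest and mesenchyme markers 5 were listed and summed to 2.60 to 8.36 RPKM in null-labelled and 4.71 to 5.43 RPKM in wild-type libraries and Prrx1 fell (-1.24 ± 0.13, limma adjusted p = 0.000135). The highest sum was that of library 6. Choroid plexus and hem markers, 2 of 9 listed, summed to 5.29 to 8.17 RPKM in null-labelled and 7.26 to 12 RPKM in wild-type libraries, and Ttr was at 0 in libraries 11 and 12, while Otx2 fell (-0.50 ± 0.15, limma adjusted p = 0.0348). Markers of Cajal-Retzius cells, early neurons of the cortical surface, rose in 6 of 8 tested cases. Their sum was 47.7 to 89.3 RPKM in null-labelled and 7.64 to 36.7 RPKM in wild-type libraries, with the lowest sum in library 7. Of 12 diencephalon and hypothalamus markers 6 were listed and 4 tested, and 2 rose, Barhl2 and Otp, where 13.8% of all tested genes rose. Otp was at 0 in wild-type libraries 1 and 7. Tcf7l2 and Pomc did not pass (-0.05 ± 0.09 and -0.07 ± 0.09). Nkx2-1 and Lhx8 were too low to be tested. Their means were lower in null-labelled libraries, at 0.295 and 0.349 RPKM against 0.823 and 0.523 RPKM in wild type. Vascular markers fell in 4 of 7 tested cases, where 14.6% of all tested genes fell. Microglia and blood markers passed in 0 of 5 (0 at an unadjusted p under 0.05, limma).

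The rest of both families was compared by the same limma test. Of 12 other AP-2 and PRDM genes, 10 were listed and 8 tested, and 0 passed in either direction (0 at an unadjusted p under 0.05, and 0 by limma voom on recovered reads, which called 32.1% of all tested genes). Their median difference was 0.02, against -0.01 over all tested genes.

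Prdm2, known as RIZ, had 13.3 ± 0.201 RPKM in null-labelled and 14.1 ± 0.403 RPKM in wild-type libraries (log2 difference -0.08 ± 0.04, limma adjusted p = 0.205). Prdm4 had 16.5 ± 0.185 RPKM in null-labelled and 16.8 ± 1.72 RPKM in wild-type libraries (-0.02 ± 0.07, limma adjusted p = 0.823). Prdm15 had 6.57 ± 0.107 RPKM in null-labelled and 6.70 ± 0.203 RPKM in wild-type libraries (-0.03 ± 0.05) and Prdm10 had 5.95 ± 0.514 RPKM in null-labelled and 6.12 ± 0.521 RPKM in wild-type libraries (-0.04 ± 0.07). Prdm9 and Prdm11 were at 1.32 to 1.62 RPKM on average in either genotype, with differences of 0.06 ± 0.11 and 0.17 ± 0.08. Prdm1, known as Blimp-1, and Mecom were below 1 RPKM in both genotypes and were not tested.

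**Figure D4:**
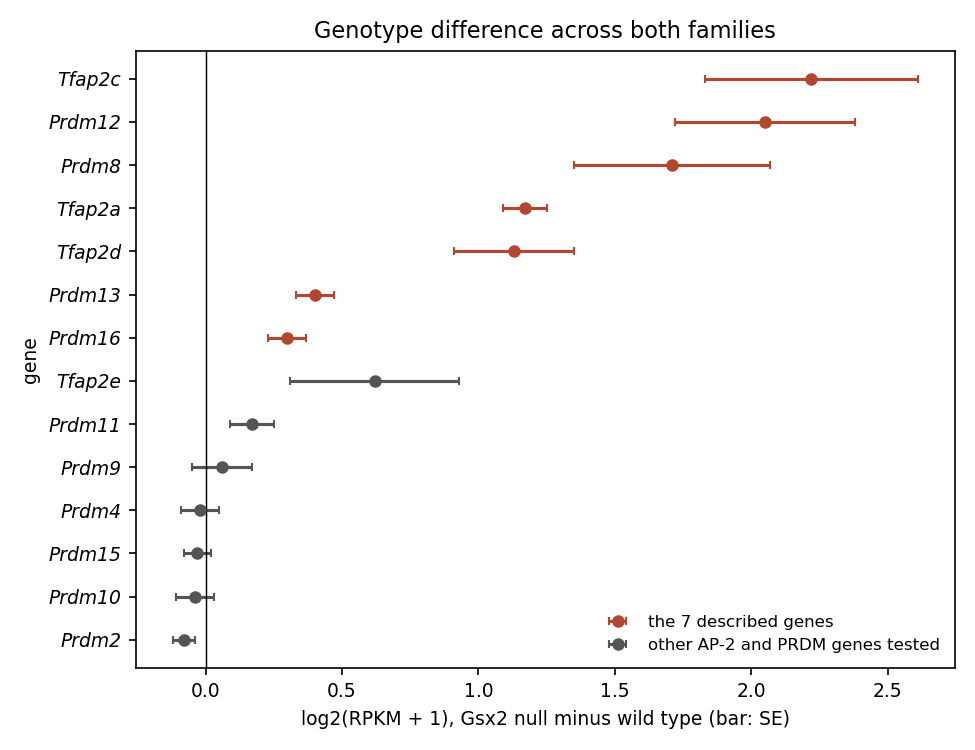
Difference in log2(RPKM + 1), null-labelled minus wild type, with SE, for the 7 described genes (red) and 7 of the 8 other AP-2 and PRDM genes tested (grey). The described genes lie between 0.30 and 2.22 and were chosen on this contrast, and of the others 0 passed the test, with Tfap2e at 0.62 ± 0.31 the farthest from 0.

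Tfap2e, encoding AP-2 epsilon, a factor of olfactory bulb neurons, split the libraries in another way. It had 2.57, 1.31, 0.222 and 0.441 RPKM in null-labelled libraries 5, 6, 11 and 12, against 0.796, 0.297, 0.0405 and 0.0660 RPKM in wild-type libraries 1, 2, 7 and 8. Libraries 11 and 12 averaged 0.170 times libraries 5 and 6, the opposite of Tfap2d, and the genotypes overlapped (limma adjusted p = 0.173). With the set of column numbers, 1, 2, 5 and 6 or 7, 8, 11 and 12, added as a term, the limma adjusted p was 0.029. The labels do not say what these sets of numbers stand for.

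AP-2 cofactors were next compared. Of 9 listed as partners or inhibitors of AP-2 proteins, 7 were tested, 2 rose and 0 fell, and the median difference was 0.08. The share that passed in either direction was near the 28.5% of all tested genes that did. Of all tested genes 13.8% rose. The genes that rose encode the related proteins Kctd15 and Kctd1, which inhibit AP-2 activity. Kctd15 had 44.1, 44.4, 40.8 and 40.1 RPKM in null-labelled libraries 5, 6, 11 and 12, against 28.1, 28.1, 23.4 and 26.3 RPKM in wild-type libraries 1, 2, 7 and 8 (log2 difference 0.66 ± 0.07, limma adjusted p = 9.84e-05). Kctd1 averaged 6.16 ± 0.602 RPKM in null-labelled and 5.01 ± 0.0669 RPKM in wild-type libraries (0.25 ± 0.06, limma adjusted p = 0.0159, and 0.178 within libraries 1, 2, 5 and 6). The coactivator genes Cited2, Ep300 and Crebbp had differences of 0.11 ± 0.05, -0.07 ± 0.05 and 0.08 ± 0.11 and did not pass.

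Among transcription factors known to act with PRDM proteins, all 6 tested of 9 in the list passed, 3 higher and 3 lower. Over all tested genes 28.5% passed, 13.8% as higher and 14.6% as lower. Bhlhe22, the partner of Prdm8, had 11.3 to 15.2 RPKM in null-labelled libraries, against 7.23, 5.10, 1.49 and 2.98 RPKM in wild-type libraries 1, 2, 7 and 8 (1.58 ± 0.30, limma adjusted p = 0.00352). Like Prdm8 it was low in library 7, at 29.3% of the other wild-type libraries, and without that library the difference was 1.28. Ebf2, which acts with Prdm16 in brown fat, rose by 1.54 ± 0.23 to 7.11 ± 0.143 RPKM in null-labelled libraries, against 1.94 ± 1.01 RPKM in wild type. Without library 7 the difference of Ebf2 was 1.27. Ppargc1a rose by 0.42 ± 0.08. Within libraries 1, 2, 5 and 6 alone its difference was 0.35 and did not pass the threshold (limma adjusted p = 0.095). Of the genes that fell, Smad3 and Ski, both of the TGF-beta pathway, had differences of -0.44 ± 0.06 and -0.22 ± 0.05, and that of Ski was not past the threshold within libraries 1, 2, 5 and 6 (limma adjusted p = 0.112).

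Chromatin cofactors of PRDM proteins moved little. Of 10 tested 0 rose and 4 fell, Prmt5 (-0.27 ± 0.06), Hdac1 (-0.18 ± 0.05), Eed (-0.18 ± 0.06) and Ezh2 (-0.17 ± 0.05), with a median of -0.08, where 14.6% of all tested genes fell. Without any 1 of libraries 1, 2, 5, 6, 7 or 8 only Prmt5 passed, and within libraries 7, 8, 11 and 12 none of the 4 passed (limma adjusted p = 0.125 for Prmt5). The methyltransferase genes Ehmt1 and Ehmt2 stood at 41.8 ± 0.673 and 69.8 ± 3.15 RPKM in null-labelled libraries, against 43.3 ± 1.52 and 74.1 ± 2.70 RPKM in wild type, and did not pass (limma adjusted p = 0.417 and 0.232).

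Of 10 genes reported elsewhere as targets, 6 were tested, 3 rose and 0 fell, where 13.8% of all tested genes rose and 14.6% fell. Eomes and Neurod4, targets of Tfap2c in mouse cortical progenitors, had differences of 2.74 ± 0.47 and 1.90 ± 0.21, or 2.14 and 1.65 without library 7. Dbx1, which in frog spinal cord is in mutual repression with Prdm12, had a difference of 3.56 ± 0.21 (limma adjusted p = 3.66e-06). Cdh11, which Prdm8 and Bhlhe22 repress in mouse, stood at 11 ± 0.452 RPKM in null-labelled and 10.6 ± 1.42 RPKM in wild-type libraries (limma adjusted p = 0.660), and Pdzrn3, a target of Prdm16 in cortex, at 3.71 ± 0.172 RPKM in null-labelled and 3.41 ± 0.235 RPKM in wild-type libraries (limma adjusted p = 0.270). Eomes was among the genes known to be higher when the list was written, so its rise is not independent evidence, and the same holds for Dbx1 and Neurod4.

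For each of the 7 genes the most alike named genes were taken by the root mean square difference between log2(RPKM + 1) profiles, each centred on its mean over the 8 libraries, among 10899 candidates. Nrn1, which encodes neuritin, and Slc17a6, a glutamate transporter gene, were closest to Tfap2c, at 0.11 and 0.13. Neurod2 and Rnd2 were closest to Prdm8 (0.11 and 0.20), and Ebf3 and Tmem163 to Prdm12 (0.15 each). The neuropeptide gene Adcyap1 and Plcd1 were closest to Tfap2a (0.05 and 0.10), and Rlbp1 and Gcg to Tfap2d (0.16 each). For Prdm13 they were Palm and Ttc7 (0.04 and 0.05) and for Prdm16 Gsdmd and Syne2 (0.04 and 0.05). Prdm13 and Prdm16 themselves vary little, with a root mean square of 0.22 and 0.17 around their means.

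The nearest listed genes on each side of the 8 named genes, up to 1752923 bases away, were tested to see whether they differed too. Of 14 such genes 11 were tested, 2 rose and 2 fell, a share near the 28.5% of all tested genes, and their median difference was -0.05. Nkain3, beside Prdm13, rose to 3.61 ± 0.296 RPKM in null-labelled libraries, against 1.60 ± 0.309 RPKM in wild type (0.83 ± 0.10, limma adjusted p = 0.000231), with 895156 bases between the genes. 5930403L14Rik, a noncoding gene inside the span of Prdm16 near its start and on the same strand, rose to 20.6 ± 0.706 RPKM in null-labelled libraries, against 15.4 ± 0.378 RPKM in wild type (0.39 ± 0.04, limma adjusted p = 0.000171). Mcm3, a replication gene 1564121 bases from Tfap2b, and Exosc2, 14920 bases from Prdm12, had differences of -0.38 ± 0.07 and -0.24 ± 0.08. Exosc2 did not pass without any 1 of libraries 1, 5, 6, 7, 8 or 12 (limma adjusted p = 0.0616 to 0.117).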

How the data were processed

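RNA was measured by sequencing in 8 LGE libraries. Per the labels' protocols, polyadenylated RNA from 500 ng of total RNA went into stranded dUTP libraries with 9 PCR cycles, read as single ends of 51 bp. The authors used STAR, featureCounts, edgeR and mm10, per the submitters' processing notes; for versions, annotation and strand setting the sources used here give nothing. The authors deposited the RPKM of each library, a log2 fold change and average log2 CPM, and an edgeR p-value and FDR per gene, per the file headers; of these only the RPKM was used for results. All listed genes reach an RPKM of 0.5 in at least 1 library. Germline columns were read as null for Gsx2 from the series title, and columns were matched to genotypes, not to single samples.

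Values on the log2(RPKM + 1) scale went into limma 3.58.1 (R 4.3.3), with genotype as its only factor, an intensity trend and two-sided tests. Benjamini-Hochberg adjustment covered the 11395 genes whose mean in 1 genotype or both reached 1 RPKM (threshold 0.05). SEs of the 7 chosen genes come from the spread within genotypes. RPKM steps gave whole reads for all 12843 listed genes (tolerance 1e-06 of a read, wider in proportion for genes with over 100 reads; a common factor restored for 44 genes); they set the depth and entered 1 alternative, limma voom. Libraries of a genotype differed by more than sampling noise (chi-square per degree of freedom at least 3.68). The fit was tested on simulated data. Alternatives were pseudocounts of 0.1 and 5, no filter, median-ratio scaling, voom, each library left out, and the set of column numbers as a term or each set alone. Genes named are the 8, Gsx2, members of fixed lists, flanking genes and the 2 most alike genes for each. Some genes of the lists are counted but not reported here by name. Members and lists were chosen with earlier results of these data known.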

Additional observations from a re-analysis of the deposited data

Results flagged for a closer look

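In groups of 4 libraries, 10 of 138 groups of the named genes had a highest or lowest library whose gap to the next, as a share of the group's range, was above Dixon's 95% critical value, and chance alone flags about 1 group in 20. Tfap2c was low in wild-type library 7, at 1.36 RPKM against 5.67 to 6.23 in the others (gap 0.885 of the range), and Nrn1, chosen for its likeness to Tfap2c over these libraries, was at 1.90 there against 7.07 to 7.92 RPKM (0.858). Prdm16 was high in null-labelled library 6, at 17.3 against 14.4 to 14.9 RPKM (0.833), and Syne2, chosen for its likeness to Prdm16, was at 26.0 there against 22.8 to 23.2 RPKM (0.881). Prdm10 was low in null-labelled library 11, at 5.18 RPKM (0.839).

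Among cofactors, Hdac1 was high in null-labelled library 12, at 5.92 RPKM (0.879), and in wild-type library 1, at 6.63 RPKM (0.893), and Ctbp2 in wild-type library 1, at 22.5 RPKM (0.940). Of the flanking genes, Antxr2 beside Prdm8 was low in wild-type library 7, at 2.64 against 3.10 to 3.15 RPKM (0.897), and 5930403L14Rik beside Prdm16 was high there, at 16.0 against 15.2 to 15.3 RPKM (0.856). The causes were not tested.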

How the results depend on the processing

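No paired analysis was possible because the column names carry none of the replicate numbers of the sample titles. Since the 7 genes were chosen on this contrast, their direction under other settings says nothing about stability. Of 111 of their differences under 16 other settings, 7 moved by more than the spread between replicates, all for Tfap2a, Tfap2d and Prdm12 under another pseudocount or voom (Tfap2a 0.36 at a pseudocount of 5 and 3.24 with voom). Genes past the threshold numbered 3242, and 1949 within libraries 1, 2, 5 and 6 (38.6% higher, against 48.6% in all and 64.5% within libraries 7, 8, 11 and 12); leaving out 1 library gave 2471 to 2954. Within libraries 1, 2, 5 and 6, 1 AP-2 cofactor passed. Of PRDM chromatin partners 2 passed within libraries 1, 2, 5 and 6, as lower, and 2 within libraries 7, 8, 11 and 12, as higher (Ctbp2 and Hdac2, limma adjusted p = 0.0396 and 0.0299); leaving out 1 library gave 1 to 3. Of the other AP-2 and PRDM genes 1, Tfap2e, passed with the set of column numbers as a term; leaving out 1 library gave 0 to 0. Reported targets and flanking genes kept counts of 3 to 4 and 3 to 5, and PRDM transcription factor partners 4 to 6. The causes were not tested. Low read numbers limit Prdm13 and, in wild type, Tfap2a and Tfap2d.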

Other observations

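A few other genes of the lists also differed between null-labelled libraries 5 and 6 and libraries 11 and 12. Libraries 11 and 12 averaged 0.471 times libraries 5 and 6 for Reln, 0.527 times for Trp73 and 0.630 times for Calb2, all of the Cajal-Retzius list, in which the other 5 genes were at 0.775 to 1.04, in the same direction as Tfap2e (0.170) and the opposite one to Tfap2d (1.57) and Prdm13 (1.39). Reln had 26.8, 24.1, 7.68 and 16.3 RPKM in null-labelled libraries 5, 6, 11 and 12, against 14.2, 11.7, 4.11 and 6.46 RPKM in wild-type libraries 1, 2, 7 and 8. In wild type too, Reln and Tfap2e were highest in library 1 and lowest in library 7, whereas Tfap2d and Prdm13 were highest in library 8. These genes were chosen after their values were seen, and the split was not tested.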
